A study of Mus musculus with 11 samples.

Results

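Periosteal skeletal stem cells (P-SSCs) were compared with bone marrow skeletal stem cells (BM-SSCs) on 4 of the 11 Affymetrix mouse expression arrays of the series, the 2 arrays titled Mx1+Ocn- and the 2 arrays titled Mx1+Nes+. The arrays were chosen by their titles and not by any measured value. P-SSCs were sorted as CD45-CD31-Ter119-CD105+CD140a+Mx1+Ocn- cells from periosteum peeled off femurs, tibias, pelvis and calvaria of Mx1-Cre; Rosa-tdTomato; Osteocalcin-GFP mice. BM-SSCs were sorted through the same surface gate as Mx1+Nes+ cells from the marrow and digested bone of femurs, tibias and pelvis of Mx1-Cre; Rosa-tdTomato; Nestin-GFP mice, without calvaria. All these mice were on, or crossed to, a C57BL/6 background, had been lethally irradiated and transplanted with wild-type C57BL/6 marrow, and had received pIpC, an inducer of interferon, to switch on Mx1-Cre and with it the red tdTomato label. They were irradiated as young mice and given pIpC some weeks later, and the time from pIpC to sorting is not given in the sources used here. The Mx1 promoter answers to interferon in many cell types, and the marrow transplant served to leave blood cells unlabelled. Each population came from its own reporter strain and its own set of bones, so tissue, reporter and bone cannot be told apart. The methods call the 2 arrays of a population biological repeats of cells pooled from several male and female mice. The mice behind each array are not named. The p-values over all arrays rest on the spread between arrays of a population, pooled over the populations of the series. The p-values of the fit that leaves out array 2 of both populations hold no spread between P-SSC arrays or between BM-SSC arrays.

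The periosteum is the fibrous and cellular sheet on the outer face of bone and supplies much of the cartilage and bone of a fracture callus, whereas the stroma of the marrow lines vessels and trabecular bone and makes the factors that hold blood stem cells in place. Both hold cells that can form osteoblasts. Kdr encodes the vascular endothelial growth factor (VEGF) receptor of endothelial cells, and Dmp1 a phosphorylated matrix protein of late osteoblasts and osteocytes.

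Values are deposited log2 values made with robust multichip averaging (RMA), so that a difference of 1 is a 2-fold ratio, and all differences are P-SSC minus BM-SSC. A same-number difference sets P-SSC array 1 against BM-SSC array 1, or P-SSC array 2 against BM-SSC array 2. The number is only a name in the labels. Each of 18193 genes was represented by its brightest probe set, taken over the mean of the 11 arrays. Array 2 of both populations had low signal. The share of probe sets above 8 was 1.81% for P-SSC array 2, 3.76% for BM-SSC array 2 and between 7.87 and 13.3% for the other 9 arrays. The beta-actin 3′ control stood at 7.81, 12.78 and at least 13.2 for the same arrays. Over all probe sets the 2 P-SSC arrays correlated at 0.456 and the 2 BM-SSC arrays at 0.771, while P-SSC array 1 and BM-SSC array 1 correlated at 0.971.

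The sort markers were partly borne out by the arrays. Pdgfra (CD140a) read 11.29 on P-SSC array 1 and 4.41 on P-SSC array 2, against 10.95 and 6.90 on the BM-SSC arrays, so that on P-SSC array 2 this marker of the gate was near the level of CD45+ blood cells, 3.62 and 3.42. Eng (CD105) read 8.32 and 7.59 in P-SSCs and 7.63 and 7.57 in BM-SSCs. Ptprc (CD45) read 5.44 and 4.60 in P-SSCs and 7.42 and 4.90 in BM-SSCs, below the 12.06 and 12.05 of the CD45+ arrays. Nes, the gene of the reporter used for BM-SSCs, was no lower in P-SSCs by its brightest probe set. This read 6.94 and 7.42 in P-SSCs, against 6.17 and 7.08 in BM-SSCs. Of the 3 Nes probe sets, 2 were higher and 1 was lower in P-SSCs on both numbers. Mx1 itself lay between 4.09 and 5.70 on the 4 arrays. Bglap, the osteocalcin gene behind the Ocn reporter, and the Ter119 antigen were not analysed here.

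Tested over all arrays with limma, 0 of 45037 probe sets (0.0%) differed between P-SSCs and BM-SSCs at an adjusted p under 0.05. The smallest adjusted p was 0.98. At an unadjusted p under 0.05 there were 931 probe sets (2.07%), of which 563 were higher and 368 lower in P-SSCs. When array 2 of both populations was left out, 209 probe sets (0.464%) passed as higher and 721 (1.6%) as lower in P-SSCs. This fit compares 1 array with 1 array and takes the spread from the other populations. In genes it called 87 higher (0.478% of genes) and 360 lower (1.98%). Of the 87 genes, 46 were also higher on array 2, a share of 52.9% that compares with 62.6% of all genes higher on array 1. Of the 360 genes, 219 were also lower on array 2, or 60.8%, beside 56.3% of all genes lower on array 1. The shares lay below that of all genes for the higher genes and above it for the lower ones.

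Bright genes were lower on P-SSC array 2 almost throughout. Of 184 genes at 10 or more on both BM-SSC arrays, 181 (98.4%) were lower by at least 1 on P-SSC array 2 than on BM-SSC array 2, with a median difference of -4.45. On array 1 the same genes had a median difference of -0.16. There 6 of them (3.26%) were lower by at least 1 in P-SSCs, beside 3.72% of all genes, so the share was near that of all genes. These 6 were Dmp1, Car3, Mmp13, Ibsp, Col1a1 and Camp, a neutrophil granule peptide. Dmp1, Mmp13, Ibsp and Col1a1 encode proteins that make or remodel bone matrix. A lower value of a bright gene on P-SSC array 2 is therefore given here as a value only.

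**Figure D1:**
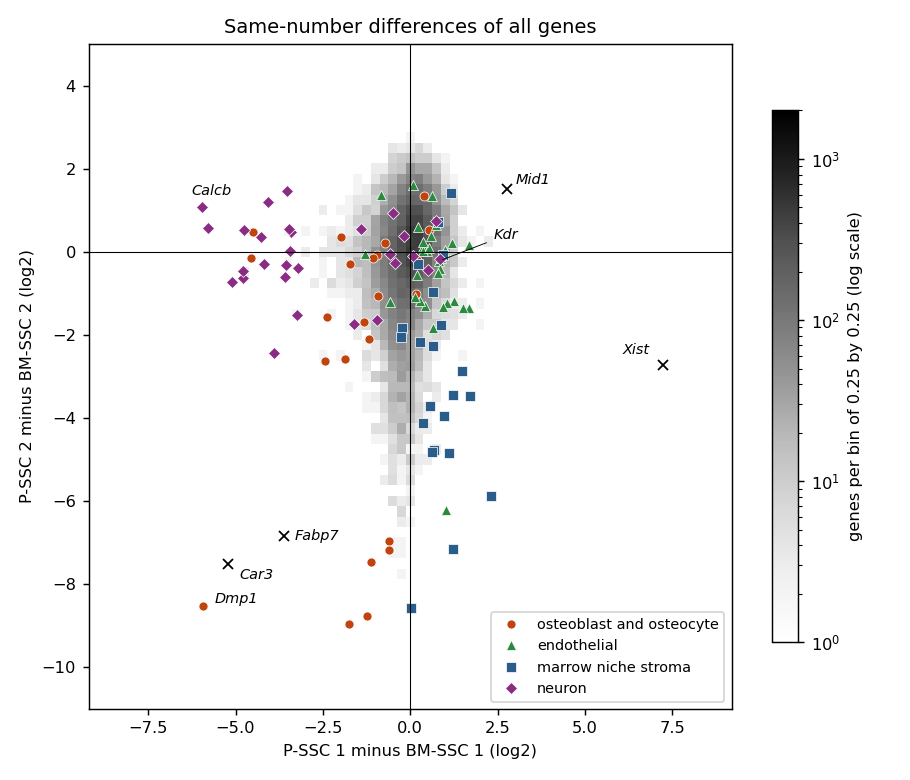
Same-number differences of all 18193 genes in log2 units, with P-SSC array 1 minus BM-SSC array 1 across and P-SSC array 2 minus BM-SSC array 2 up. Grey shading counts genes per square bin, coloured symbols are members of 4 gene lists and crosses mark single genes. Dmp1, Car3 and Fabp7 lie far in the lower left, while neuronal genes spread along the left and marrow niche genes downward.

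Bone matrix and mineralization genes were lower in P-SSCs on array 1, most of all Dmp1. The sort removed Osteocalcin-GFP+ cells, mature osteoblasts, from P-SSCs, while the BM-SSC gate had no such step. Gate and tissue cannot be told apart here, and the part of the gate in the bone differences was not tested. Dmp1 read 7.10 and 2.75 in P-SSCs, against 13.02 and 11.28 in BM-SSCs. Both P-SSC arrays lay below both BM-SSC arrays, by 60.4-fold on array 1. On P-SSC array 2 it stood at percentile 2.92 of the array, near the level in CD45+ cells, so no ratio is given for array 2. The limma contrast was -7.22 ± 1.23 (SE, 95% confidence interval -10.09 to -4.36), with an adjusted p of 0.98 over all arrays and of 0.000196 without array 2 of both. All 3 Dmp1 probe sets gave the same order. The other 2 probe sets differed by -5.56 and -6.66 on array 1, and by -1.96 and -7.08 on array 2. Among the other populations Dmp1 read 11.50 in Nes+ marrow stromal cells, 10.75 and 10.42 in Osx+ osteoprogenitors, 8.28 and 8.49 in CD51+ stromal cells and 2.46 and 2.44 in CD45+ cells. P-SSC array 1 lay below every array of the other stromal populations and above the blood cells.

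Mmp13, the collagenase of hypertrophic cartilage and osteoblasts, read 11.86 and 3.75 in P-SSCs, against 13.62 and 12.71 in BM-SSCs. Ibsp, bone sialoprotein, read 11.38 and 2.90 in P-SSCs, against 12.63 and 11.67 in BM-SSCs. Neither gene overlapped between the populations, and on array 1 the ratios were 3.38-fold for Mmp13 and 2.37-fold for Ibsp, far smaller than for Dmp1. Col1a1, the main collagen chain of bone, read 12.21 and 4.93 in P-SSCs, against 13.34 and 12.39 in BM-SSCs, and did not pass without array 2 of both, with an adjusted p of 0.0642.

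The promoters of Dmp1 and Mmp13 are shown because both genes were lower in P-SSCs without overlap and both windows hold a Runx element. This is the core element bound by Runx factors, the lineage regulators of osteoblasts. The 2 genes were not picked by size of difference, since Mmp13 differed by -1.76 on array 1 and Ifitm5 by -4.57. The windows run from 250 bases before to 50 after an annotated RefSeq start (GRCm38.p6), and capitals mark the element ACCACA, searched on both strands. The Dmp1 window is the second of the 2 annotated starts, chr5:104202367-104202666 on the plus strand, and the Mmp13 window is chr9:7272264-7272563 on the plus strand.
Dmp1: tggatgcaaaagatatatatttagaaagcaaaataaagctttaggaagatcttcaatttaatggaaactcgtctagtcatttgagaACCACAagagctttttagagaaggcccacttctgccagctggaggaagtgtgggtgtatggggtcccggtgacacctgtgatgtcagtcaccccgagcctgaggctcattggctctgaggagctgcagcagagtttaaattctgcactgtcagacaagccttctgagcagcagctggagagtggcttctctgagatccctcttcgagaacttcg
Mmp13: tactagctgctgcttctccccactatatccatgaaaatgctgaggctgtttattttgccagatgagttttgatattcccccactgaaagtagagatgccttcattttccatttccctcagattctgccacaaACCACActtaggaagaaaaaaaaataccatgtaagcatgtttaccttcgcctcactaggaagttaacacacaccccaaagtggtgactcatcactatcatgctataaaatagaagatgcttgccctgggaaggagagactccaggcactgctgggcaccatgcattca
The element begins 164 bases before the start in Dmp1 and 118 bases before it in Mmp13. It occurs in 16.8% of all 32851 windows. Of the 10 bone genes that passed as lower without array 2, 6 had a window and 3 of those held the element. The first Dmp1 window and the windows of Ibsp, Ifitm5 and Phex held no match, while that of Dkk1 held the element. A match is a description of the sequence, and Runx factor binding was not measured.

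Over the osteoblast and osteocyte list, 23 of 27 genes were measured. Both P-SSC arrays lay below both BM-SSC arrays for 8 of the 23, where 3.55% of all genes did so, and above them for 1, where 6.78% did. At least 1 log2 unit lower in both same-number differences were 9 genes, against 0.929% of all genes, and 0 were that much higher, against 0.247%. Without array 2 of both, 10 of the 23 passed as lower and 0 as higher, where 1.98% and 0.478% of all genes did. The median difference was -1.18 on array 1 and -1.06 on array 2, beside 0.01 and 0.07 over all genes. With the median probe set of each gene it was -1.32 on array 1 and -0.30 on array 2. The counts that use array 2 rest on an array where bright genes were lower at large, 86.6% of the 808 genes at 8 or more on both BM-SSC arrays by at least 1. The list was drawn up with earlier results of these arrays known.

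The 10 genes that passed without array 2 were Dmp1, Ibsp, Mmp13, Ifitm5, Dkk1, Smpd3, Sp7, Phex, Col22a1 and Cadm1. Ifitm5, an osteoblast membrane protein of mineralizing bone, read 4.37 and 6.34 in P-SSCs, against 8.93 and 6.49 in BM-SSCs. Only BM-SSC array 1 was high for it. Dkk1, a secreted Wnt antagonist, read 3.10 and 5.14 in P-SSCs, against 7.59 and 4.66 in BM-SSCs, and its order turned on array 2. Smpd3, a sphingomyelinase needed for mineralization, turned likewise, with 5.93 and 5.86 in P-SSCs and 7.91 and 5.51 in BM-SSCs.

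Sp7 encodes Osterix, the transcription factor that commits cells to the osteoblast fate. It read 6.42 and 6.81 in P-SSCs, against 8.15 and 7.11 in BM-SSCs, and the groups did not overlap. The contrast was -1.02 ± 0.42 (SE, 95% confidence interval -1.99 to -0.05), and the adjusted p was 0.98 over all arrays and 0.023 without array 2 of both. The Osx+ cells, sorted on a reporter of this gene, read 8.93 and 8.58. Phex, the phosphate-regulating endopeptidase of osteocytes, read 7.0 and 2.85 in P-SSCs, against 8.87 and 5.43 in BM-SSCs, so that P-SSC array 1 lay above BM-SSC array 2. Cadm1, a cell adhesion molecule, read 7.83 and 6.47 in P-SSCs, against 10.21 and 8.04 in BM-SSCs, without overlap. Col22a1 read 7.84 and 4.79 in P-SSCs, against 10.29 and 7.42 in BM-SSCs. Alpl, alkaline phosphatase, did not differ in that way, with 8.57 and 8.19 in P-SSCs against 9.29 and 7.97 in BM-SSCs, and Sost, the osteocyte Wnt inhibitor, was low throughout, between 3.86 and 4.88.

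**Figure D2:**
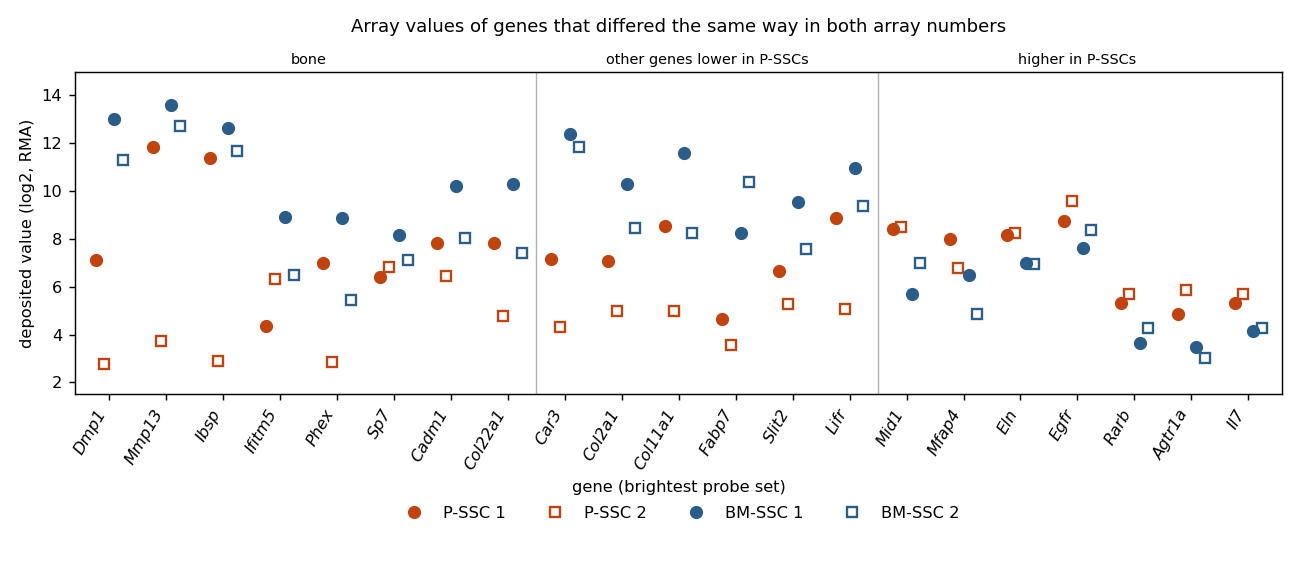
Deposited log2 values of 21 genes by array, with P-SSC arrays to the left of BM-SSC arrays within each gene, filled circles for array 1 and open squares for array 2. Dmp1 is at 7.10 and 2.75 in P-SSCs and at 13.02 and 11.28 in BM-SSCs, and the genes in the right block, led by Mid1, are higher in P-SSCs on both arrays.

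Car3, carbonic anhydrase III of muscle, fat and other mesenchymal cells, showed a difference as large as that of the bone genes. It read 7.18 and 4.31 in P-SSCs, against 12.38 and 11.83 in BM-SSCs. The limma contrast was -6.36 ± 0.83 (SE, 95% confidence interval -8.29 to -4.43), with an adjusted p of 0.98 over all arrays and of 0.00159 without array 2 of both. Nes+, Osx+ and CD51+ cells read between 10.10 and 11.91, so that the P-SSC arrays were the only stromal ones below 10. Of its 4 probe sets, 2 gave the same order on both arrays. The other 2, which were dimmer, differed by -2.78 and -3.10 on array 1 but by 0.90 and 1.35 on array 2.

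Cartilage genes were lower in P-SSCs for a few members. Col2a1, the main collagen of cartilage, read 7.06 and 4.99 in P-SSCs, against 10.28 and 8.46 in BM-SSCs, and 14.81 and 14.75 in Osx+ cells. The 2 populations did not overlap and differed by -3.22 on array 1 and -3.47 on array 2. On array 2 the genes at 8 or more on both BM-SSC arrays had a median difference of -3.15, so the array 2 value is near that of bright genes at large. Col11a1, a minor collagen of the same fibrils, read 8.54 and 4.96 in P-SSCs, against 11.59 and 8.25 in BM-SSCs, where P-SSC array 1 lay above BM-SSC array 2. Col11a2 read 5.35 and 6.84 in P-SSCs, against 9.96 and 6.56 in BM-SSCs, and was high on BM-SSC array 1 alone. Over the 23 genes of the chondrocyte list the median difference was -0.32 on array 1 and 0.04 on array 2, with 4 genes passing as lower and 0 as higher without array 2, where 1.98% and 0.478% of all genes passed.

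Over 39 collagen genes, 7 passed as lower and 0 as higher without array 2, where 1.98% and 0.478% of all genes did, and the median differences were -0.04 on array 1 and -0.75 on array 2. Among abundant interstitial collagens, Col1a1 and Col1a2 were lower in P-SSCs on array 1, by 2.19-fold and 1.53-fold. Col3a1 and Col6a1 were level on array 1. There Col3a1 was 14.08 in P-SSCs and 14.15 in BM-SSCs, and Col6a1 12.20 in P-SSCs and 12.22 in BM-SSCs. On array 2 Col3a1 was 5.57 in P-SSCs and 12.93 in BM-SSCs, one of the bright genes that array 2 placed lower. Col13a1, a transmembrane collagen, read 5.77 and 5.97 in P-SSCs, against 9.23 and 6.72 in BM-SSCs, and had the smallest adjusted p of the list without array 2, 0.00117.

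Kdr did not pass in any setting shown here. It read 8.55 and 7.36 in P-SSCs, against 7.72 and 7.58 in BM-SSCs. P-SSC array 1 was the highest of the 4 and P-SSC array 2 the lowest, so the groups overlapped, and the order turned between array numbers, 0.83 on array 1 and -0.22 on array 2. The limma contrast was 0.31 ± 0.43 (SE, 95% confidence interval -0.70 to 1.31), with an adjusted p of 0.98 over all arrays and 0.119 without array 2 of both. By percentile within its own array, Kdr stood at 93.2 and 96.0 in P-SSCs, against 86.9 and 94.8 in BM-SSCs. A gene gains rank where brighter genes fall, and only 1.81% of probe sets exceeded 8 on P-SSC array 2. From P-SSC array 1 to array 2 the value of Kdr fell while its percentile rose. The percentiles of array 2 are therefore given as values only. The array carries 1 probe set for Kdr. In the other populations Kdr lay between 5.21 and 6.16, so that all 4 P-SSC and BM-SSC arrays were above all 7 others. Those others include the Nes+ and CD51+ arrays, whose titles also call their cells marrow SSCs.

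The other VEGF receptors gave mixed orders. Flt1, VEGF receptor 1, read 8.50 and 6.62 in P-SSCs, against 6.80 and 6.46 in BM-SSCs. It was higher in P-SSCs on both array numbers, by 1.70 and 0.15, although P-SSC array 2 lay below BM-SSC array 1. Its contrast was 0.92 ± 0.65 (SE, 95% confidence interval -0.58 to 2.43), adjusted p 0.98 over all arrays and 0.112 without array 2 of both. Flt4, the receptor of lymphatic vessels, read 6.08 and 6.99 in P-SSCs, against 5.99 and 5.38 in BM-SSCs, with no overlap but a difference of 0.09 on array 1. Among co-receptors, Nrp2 read 8.92 and 6.66 in P-SSCs, against 10.47 and 7.92 in BM-SSCs, lower by 2.94-fold and 2.4-fold by array number, and all 4 of its probe sets were lower on both numbers. Nrp1 read 9.80 and 5.73 in P-SSCs, against 9.03 and 6.77 in BM-SSCs.

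Of the ligands, Vegfd, which signals through Flt4 in the mouse, was higher in P-SSCs by at least 1 on both numbers, with 8.06 and 5.78 in P-SSCs against 6.98 and 4.71 in BM-SSCs. Arrays 1 and 2 of a population lay farther apart than the populations did, so the groups overlapped. Vegfa, the main ligand of Kdr, was lower on both numbers, with 7.15 and 4.65 in P-SSCs against 8.08 and 5.96 in BM-SSCs. Vegfc read 8.87 and 4.94 in P-SSCs, against 7.91 and 6.80 in BM-SSCs. Of the 10 genes of the VEGF list, 0 passed as higher without array 2 and 1 as lower, where 0.478% and 1.98% of all genes did.

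**Figure D3:**
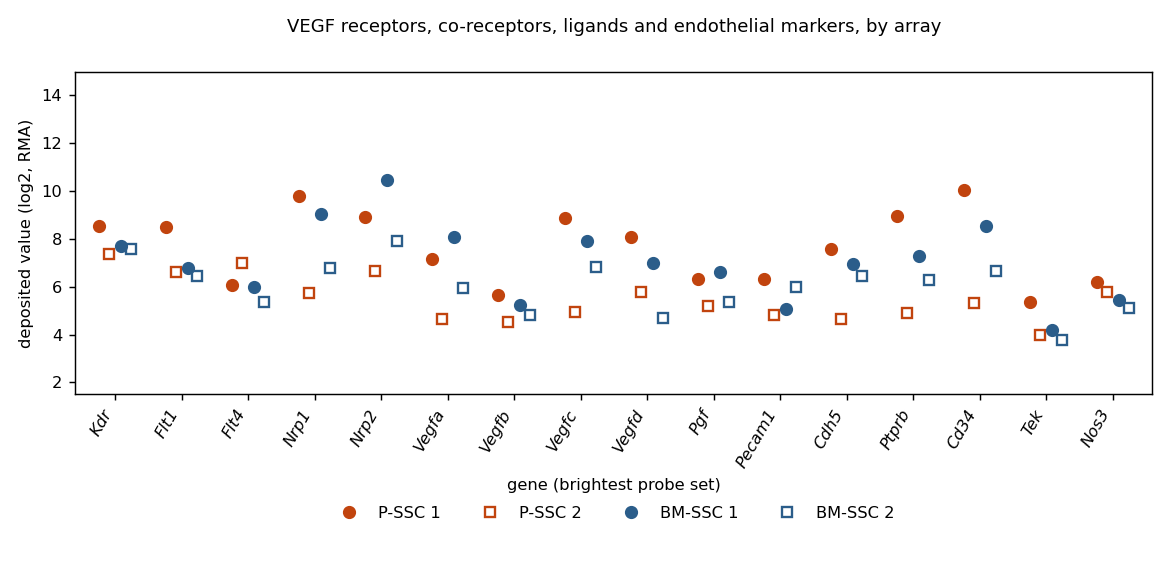
Deposited log2 values of VEGF receptors, co-receptors and ligands and of 6 endothelial genes by array, P-SSC arrays to the left of BM-SSC arrays within each gene, with filled circles for array 1 and open squares for array 2. Kdr reads 8.55 and 7.36 in P-SSCs and 7.72 and 7.58 in BM-SSCs, and for most genes array 2 lies below array 1 in both populations.

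Endothelial genes moved with Kdr on array 1. Of 31 endothelial genes, 28 were higher on P-SSC array 1 than on BM-SSC array 1, as were 50.7% of all genes, and 14 were higher on P-SSC array 2 than on BM-SSC array 2, as were 53.5% of all genes. The median difference was 0.64 on array 1 and -0.16 on array 2. Pecam1, the CD31 antigen against which both populations were sorted, read 6.34 and 4.80 in P-SSCs, against 5.09 and 5.97 in BM-SSCs, and it passed as higher without array 2 with an adjusted p of 0.0356. Ptprb, the vascular phosphatase, passed too, at 8.97 and 4.90 in P-SSCs against 7.29 and 6.26 in BM-SSCs. Cdh5, VE-cadherin, read 7.60 and 4.64 in P-SSCs, against 6.94 and 6.46 in BM-SSCs. The summed log2 level of the list was 210.1 and 160.7 in P-SSCs, against 192.0 and 175.1 in BM-SSCs. The part of endothelial RNA in the Kdr values was not tested. On these bulk arrays more cells of a type and more RNA per cell cannot be told apart.

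Of 8 angiopoietin and Tie receptor genes measured, 2 were higher and 3 lower in P-SSCs on both numbers. Angpt1, the ligand that activates Tek, read 6.82 and 7.01 in P-SSCs, against 6.02 and 6.30 in BM-SSCs. Angpt2, which opposes it in many settings, read 5.45 and 5.23 in P-SSCs, against 6.21 and 5.93 in BM-SSCs. Neither gene overlapped between populations, in opposite directions, and neither passed over all arrays. Of 2 Angpt2 probe sets, 1 was lower on both numbers. Angpt4 was lower by 1.82-fold and 2.53-fold by array number, without overlap for both of its 2 probe sets. In this list 1 gene was higher and 2 were lower without overlap, where 6.78% and 3.55% of all genes were. Tek itself read 5.37 and 4.0 in P-SSCs, against 4.17 and 3.78 in BM-SSCs.

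Marrow niche genes were not lower in the periosteal cells on array 1. Of 22 such genes, 20 were higher on P-SSC array 1 than on BM-SSC array 1, beside 50.7% of all genes, with a median difference of 0.73, and 20 were lower on P-SSC array 2 than on BM-SSC array 2, with a median of -3.16. Lepr, the leptin receptor that marks marrow stroma around sinusoids, read 10.35 and 3.18 in P-SSCs, against 9.24 and 8.03 in BM-SSCs. Cxcl12, the chemokine that retains blood stem cells, read 12.43 and 5.06 in P-SSCs, against 11.21 and 12.22 in BM-SSCs. Grem1, a BMP antagonist of skeletal stem cells, read 9.03 and 4.86 in P-SSCs, against 8.38 and 7.12 in BM-SSCs. In each case P-SSC array 1 was the highest of the 4 arrays and P-SSC array 2 the lowest.

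Adipoq, the adiponectin gene of fat and of marrow stroma, read 10.75 and 4.17 in P-SSCs, against 8.44 and 10.05 in BM-SSCs. Without array 2 of both, 2 genes of the niche list passed as higher and 0 as lower, where 0.478% and 1.98% of all genes did. They were Esm1, endocan, with 9.18 and 4.80 in P-SSCs against 7.46 and 8.27 in BM-SSCs, and Chrdl1, a BMP antagonist, with 7.88 and 3.53 in P-SSCs against 6.39 and 6.40 in BM-SSCs. Il7, the lymphoid cytokine of marrow stroma, was higher on both numbers without overlap. It read 5.31 and 5.68 in P-SSCs, against 4.13 and 4.27 in BM-SSCs, where 6.78% of all genes were higher without overlap.

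Among genes of periosteum, tendon and fibroblasts, Postn, periostin, named for the periosteum, read 12.68 and 5.58 in P-SSCs, against 12.71 and 10.68 in BM-SSCs. Ctsk, cathepsin K, read 10.59 and 5.06 in P-SSCs, against 10.94 and 8.64 in BM-SSCs, and Prrx1, a limb mesenchyme factor, 10.60 and 3.60 in P-SSCs, against 10.38 and 7.04 in BM-SSCs. These 3 genes differed by less than 1 on array 1. Of 35 genes, 9 were higher by at least 1 on array 1 and 0 lower, where 1.63% of all genes were higher and 3.72% lower. The median difference was 0.21 on array 1 and -1.77 on array 2, and 2 genes passed as higher without array 2, beside 0.478% of all genes. Tnmd, tenomodulin of tendon, read 9.17 and 6.44 in P-SSCs, against 7.70 and 5.72 in BM-SSCs, higher on both numbers. Fbln2, fibulin 2, read 10.05 and 6.13 in P-SSCs, against 8.71 and 6.76 in BM-SSCs.

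**Figure D4:**
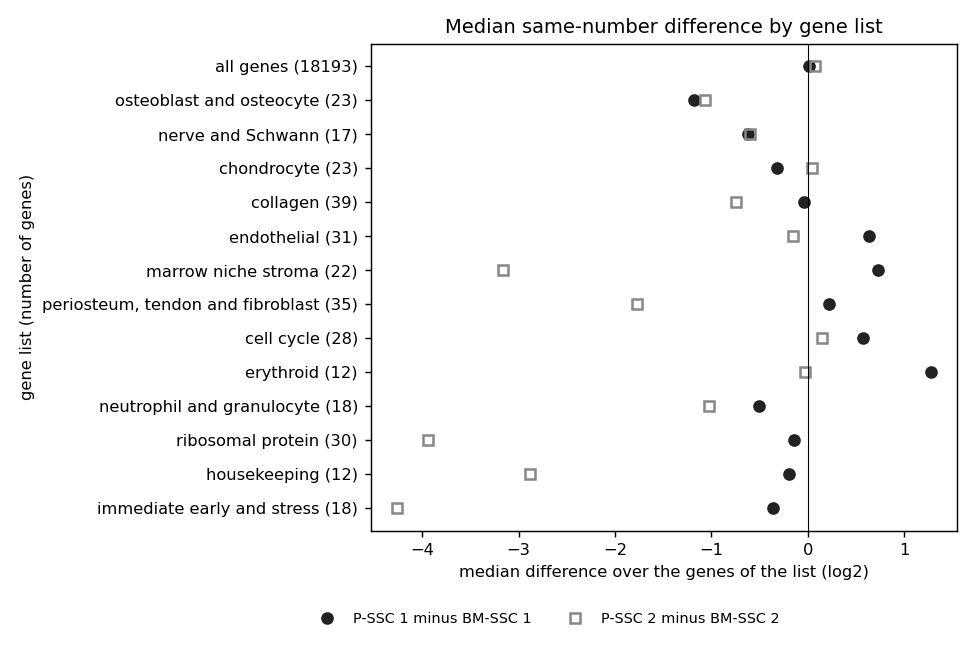
Median same-number difference (log2, P-SSC minus BM-SSC) over the genes of 13 gene lists and of all genes, with filled circles for array 1, open squares for array 2 and the number of genes in parentheses. The osteoblast and osteocyte list lies at -1.18 and -1.06, while ribosomal protein genes lie at -0.15 on array 1 and -3.94 on array 2.

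Several glial and neuronal genes were higher in BM-SSCs, on different arrays. Fabp7, the fatty acid-binding protein of glial precursors, read 4.65 and 3.55 in P-SSCs, against 8.27 and 10.40 in BM-SSCs, without overlap. Its contrast was -5.23 ± 0.68 (SE, 95% confidence interval -6.82 to -3.64), with an adjusted p of 0.98 over all arrays and 0.00117 without array 2 of both. It read 8.45 in Nes+ stromal cells, which were sorted on the same reporter, and between 3.18 and 5.88 elsewhere. Mbp, myelin basic protein, read 7.14 and 2.61 in P-SSCs, against 8.52 and 11.56 in BM-SSCs, and Erbb3, the neuregulin receptor of Schwann cells, 4.34 and 3.55 in P-SSCs, against 5.14 and 5.86 in BM-SSCs. Sox10, the regulator of that lineage, read 6.10 and 7.46 in P-SSCs, against 5.46 and 6.85 in BM-SSCs, the other order on both numbers. Of 17 nerve and Schwann cell genes, 6 passed as lower and 0 as higher without array 2, beside 1.98% and 0.478% of all genes.

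A set of neuronal genes was high on BM-SSC array 1 alone, and these were picked after their values had been seen, so they are described and not tested as a set. Tubb3, the neuronal tubulin, read 2.95 and 2.81 in P-SSCs, against 8.05 and 3.54 in BM-SSCs. Snap25, of the synaptic release machinery, read 2.69 and 2.83 in P-SSCs, against 7.49 and 3.45 in BM-SSCs. Calcb, a sensory neuropeptide gene, read 2.94 and 5.24 in P-SSCs, against 8.89 and 4.17 in BM-SSCs. The Nes+ array read 3.07, 3.44 and 4.26 for these genes, so BM-SSC array 1 was the only array of the series with such levels of them.

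Trpv1, the capsaicin receptor of pain-sensing neurons, read 2.14 and 4.18 in P-SSCs, against 6.20 and 2.99 in BM-SSCs, and Slc17a6, their glutamate transporter, 2.78 and 3.71 in P-SSCs, against 6.19 and 3.25 in BM-SSCs. Th and Dbh, enzymes of sympathetic neurons, were not high on that array. Th read 3.93 and 5.67 in P-SSCs, against 4.43 and 4.73 in BM-SSCs, and Dbh 6.05 and 7.27 in P-SSCs, against 5.98 and 7.38 in BM-SSCs. Over the 29 neuronal genes measured, which were picked on array 1, the median difference was -3.44 on array 1 and -0.10 on array 2.

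**Figure D5:**
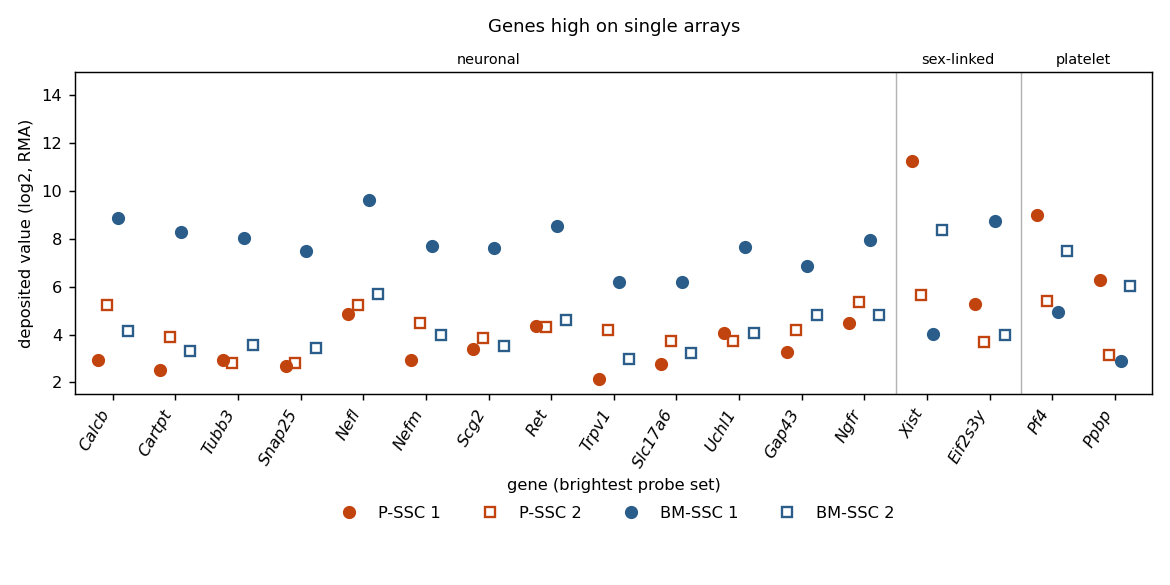
Deposited log2 values of neuronal, sex-linked and platelet genes by array, P-SSC arrays to the left of BM-SSC arrays within each gene, with filled circles for array 1 and open squares for array 2. The neuronal genes stand between 6.19 and 9.62 on BM-SSC array 1 and at or below 5.70 on the other 3 arrays, and on array 1 Xist is at 11.26 in P-SSCs and 4.03 in BM-SSCs.

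Sex-linked genes differed between the arrays. Xist, the RNA that silences an X chromosome in females, read 11.26 and 5.67 in P-SSCs, against 4.03 and 8.39 in BM-SSCs. The Y-linked gene Eif2s3y read 5.26 and 3.69 in P-SSCs, against 8.74 and 3.97 in BM-SSCs. BM-SSC array 1 was thus low for Xist and high for Eif2s3y, and P-SSC array 1 was high for Xist and lower for Eif2s3y. The Y-linked genes Kdm5d and Uty were dim, and their probe sets gave both orders on array 1. The brightest Kdm5d probe set read 3.50 and 4.0 in P-SSCs, against 2.64 and 3.75 in BM-SSCs, while another read 2.45 and 3.63 in P-SSCs, against 5.01 and 2.57 in BM-SSCs. The brightest Uty probe set read 3.37 and 4.15 in P-SSCs, against 3.20 and 3.57 in BM-SSCs, while another read 2.36 and 3.62 in P-SSCs, against 4.34 and 2.69 in BM-SSCs. The sex makeup behind each array is not given in the sources used here, and its part in the differences was not tested. Xist gave the largest difference in favour of P-SSCs on array 1, 7.23, and -2.72 on array 2.

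Among genes higher in P-SSCs, 45 exceeded BM-SSCs by at least 1 on both numbers, or 0.247% of all genes. They were mostly dim, with a median of 5.29 and 6.28 in P-SSCs against 4.06 and 4.71 in BM-SSCs, and 7 of them reached 8 on P-SSC array 1. Mid1, a microtubule-bound ubiquitin ligase encoded on the X chromosome, led the genes without overlap when these were ranked by the smaller of the 2 same-number differences. It read 8.43 and 8.50 in P-SSCs, against 5.68 and 6.99 in BM-SSCs, by 6.75-fold and 2.85-fold by array number. The contrast was 2.13 ± 0.48 (SE, 95% confidence interval 1.01 to 3.25), with an adjusted p of 0.98 over all arrays and 0.0135 without array 2 of both. Its other 2 probe sets, both dim, differed by -0.35 and 0.15 on array 1. Elsewhere it lay between 6.03 and 7.75.

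Both P-SSC arrays lay above both BM-SSC arrays for 6.78% of all genes. Of these genes without overlap, Mfap4 and Eln encode proteins of elastic fibres. Mfap4, a microfibril protein, read 8.0 and 6.77 in P-SSCs, against 6.50 and 4.87 in BM-SSCs, with a contrast of 1.70 ± 0.60 (SE, 95% confidence interval 0.30 to 3.10). Eln, elastin, read 8.15 and 8.26 in P-SSCs, against 7.01 and 6.95 in BM-SSCs, with a contrast of 1.23 ± 0.36 (SE, 95% confidence interval 0.38 to 2.08). Both were without overlap, and the adjusted p was 0.98 over all arrays for each. Without array 2 of both it was 0.0276 for Mfap4 and 0.147 for Eln. CD51+ cells read higher for Eln, 8.50 and 9.40, and a second, dimmer Eln probe set differed by 0.08 and -0.36.

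Egfr, Agtr1a and Rarb, also without overlap, encode receptors. Egfr, the epidermal growth factor receptor, read 8.76 and 9.57 in P-SSCs, against 7.62 and 8.39 in BM-SSCs. Of its 7 probe sets, 3 were higher in P-SSCs on both numbers and 0 lower on both. Agtr1a, an angiotensin II receptor, read 4.84 and 5.85 in P-SSCs, against 3.49 and 3.02 in BM-SSCs. Rarb, a retinoic acid receptor, read 5.32 and 5.70 in P-SSCs, against 3.63 and 4.26 in BM-SSCs. The groups overlapped for none of these 3 genes, and each contrast had an adjusted p of 0.98 over all arrays. The array medians were 4.59 and 4.94 in P-SSCs and 4.53 and 4.83 in BM-SSCs, so Agtr1a and Rarb were dim. The median of P-SSC array 2 was the highest of the series. Egfr and Rarb read higher on the low-signal array 2 than on array 1 in both populations.

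Further genes lower in P-SSCs on both numbers encode guidance, adhesion and signalling proteins. Cdh2 and Lifr were at 8 or more on both BM-SSC arrays, and 86.6% of such genes were lower by at least 1 on array 2. Slit2, a ligand that guides axons and vessels, read 6.65 and 5.28 in P-SSCs, against 9.55 and 7.58 in BM-SSCs. Cdh2, N-cadherin, read 7.86 and 5.87 in P-SSCs, against 10.44 and 8.46 in BM-SSCs. Lifr, the receptor of leukemia inhibitory factor, read 8.87 and 5.09 in P-SSCs, against 10.98 and 9.39 in BM-SSCs. Slit2, Cdh2 and Lifr were picked among genes without overlap, so their lack of overlap is no result. Of all genes, 3.55% were lower in P-SSCs without overlap. On array 1 the differences were -2.91 for Slit2, -2.58 for Cdh2 and -2.10 for Lifr. Gal, the neuropeptide galanin, read 5.02 and 3.45 in P-SSCs, against 8.93 and 5.89 in BM-SSCs. Hpgd, which degrades prostaglandins, read 5.48 and 3.28 in P-SSCs, against 9.18 and 5.61 in BM-SSCs, where P-SSC array 1 was just below BM-SSC array 2.

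Blood cell genes also moved between the arrays. Of 18 neutrophil and granulocyte genes, 5 were lower in P-SSCs without overlap and 0 higher, where 3.55% and 6.78% of all genes were, and 0 passed without array 2. Camp, the neutrophil peptide among the bright genes above, read 10.50 and 8.13 in P-SSCs, against 11.54 and 11.21 in BM-SSCs. Of 12 erythroid genes, 7 were higher by at least 1 on array 1 and 0 lower, where 1.63% of all genes were higher and 3.72% lower, with a median of 1.27 on array 1 and -0.03 on array 2. Slc4a1, the red cell anion exchanger, read 10.27 and 5.15 in P-SSCs, against 8.36 and 5.83 in BM-SSCs. Pf4, platelet factor 4, read 9.0 and 5.39 in P-SSCs, against 4.92 and 7.51 in BM-SSCs. It was highest on P-SSC array 1 and lowest on BM-SSC array 1. The part of blood cell RNA in the other differences was not tested.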

How the data were processed

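The authors isolated RNA from sorted mouse cells, amplified it and hybridised it to Affymetrix mouse arrays, and deposited log2 values computed in Partek GS by robust multichip averaging (RMA), which subtracts background, normalizes by quantiles and summarises the probes of each set. The deposited distributions are not equal, with interquartile ranges between 1.81 and 3.56, and which arrays were normalized together is not given in the sources used here. The submitters' notes name limma, with no version. These log2 values were used as deposited. The scanner files were not analysed here, so that detection calls were not used. Of 45101 probe sets, 64 control probe sets were left out and 45037 were tested. Gene names came from the platform annotation, with 1 symbol for 34945 probe sets, several for 932 and none for 9160. A match of 34741 of them by gene ID to RefSeq changed 0 symbols. For each gene the brightest probe set by mean over the arrays stood for it, among those with 1 symbol.

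P-SSCs were compared with BM-SSCs in limma 3.58.1 (R 4.3.3), with 1 mean per population over all 11 arrays, 5 residual and 2.65 prior degrees of freedom, and Benjamini-Hochberg adjustment over all tested probe sets at 0.05. Adjusted p-values over all arrays are from this model. Those given without array 2 of both are from the same model refitted to the remaining 9 arrays. It had 1 P-SSC array, 1 BM-SSC array, 3 residual and 4.52 prior degrees of freedom. Same-number differences and gene lists were described without a test. The 38 gene lists, the comparison and the genes named were chosen with earlier results of these data known, and the neuron and platelet lists after the values had been seen. The genes named were Kdr, Dmp1, the sort markers and genes the study names, up to 15 genes per direction by the smaller same-number difference among those without overlap, up to 15 per direction by the array 1 difference, and up to 6 members of a list with its defining markers. Others were added from the lists after their values were seen. Promoter windows came from the RefSeq table for GRCm38.p6.

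Alternatives were the unadjusted p, the 4 arrays alone, brighter probe sets, quantile normalization, median centring, a variance trend with robust estimation, array weights, a replicate block, a minimum difference of 1, a single probe set per gene, the median probe set of a gene, and leaving out arrays. The number of arrays limits the precision. The fit was tested on simulated data.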

Additional observations from a re-analysis of the deposited data

How the results depend on the processing

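The count of called probe sets was 0 under 10 of the settings tried. Those were all arrays, a minimum difference of 1, the 4 arrays alone, brighter probe sets, quantile normalization, median centring, a variance trend with robust estimation, array weights, a replicate block and 1 probe set per gene. With the array number as a replicate block it was 0, with a smallest adjusted p of 0.95 over all arrays, and 0 with 0.236 over the 4 arrays. P-SSCs and BM-SSCs of the same number deviated together at r = 0.784 over probe sets, but with 2 pairs the samples share only a number. The count was 931 at the unadjusted p, 930 without array 2 of both populations and 19597 without array 1 of both. Leaving out single arrays gave 0 to 7080, the highest without P-SSC array 1 and 5 without BM-SSC array 2. Without array 1, Kdr was -0.22, Pecam1 -1.18 and Xist -2.72. Without array 2, Lepr was 1.10, Grem1 0.65 and Pdgfra 0.33, against negative contrasts over all arrays. Pecam1 was -0.44 under quantile normalization and -0.048 under median centring, against 0.04 over all arrays. Leaving out single arrays, Kdr ranged from -0.29 to 0.90, Flt1 from -0.018 to 1.86, Vegfd from -0.071 to 2.21, Pecam1 from -0.73 to 0.81, Lepr from -5.46 to 1.71, Grem1 from -2.89 to 1.28, Pdgfra from -4.52 to 2.36 and Xist from -0.54 to 5.05. Dmp1 ranged from -9.40 to -5.05, Car3 from -7.79 to -4.93, Fabp7 from -6.30 to -4.17 and Mid1 from 1.48 to 2.79, with no change of sign. With the median probe set of a gene, the osteoblast and osteocyte list had medians of -1.32 on array 1 and -0.30 on array 2. The cause of these shifts was not tested. The low signal of array 2 of both populations limits what the comparison can show.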

Other observations

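Most cell cycle genes read higher in P-SSCs on array 1. Of 28 such genes, 26 were higher on P-SSC array 1 than on BM-SSC array 1 and 15 were higher on P-SSC array 2 than on BM-SSC array 2, beside 50.7% and 53.5% of all genes, with median differences of 0.57 and 0.15. Both P-SSC arrays lay above both BM-SSC arrays for 8 genes and below them for 0, where 6.78% and 3.55% of all genes did so. Ccna2, cyclin A, read 6.75 and 6.75 in P-SSCs, against 6.18 and 6.16 in BM-SSCs, and Aurka, a mitotic kinase, 6.03 and 5.95 in P-SSCs, against 5.07 and 5.26 in BM-SSCs. Mki67, the proliferation marker, overlapped, with 9.56 and 5.92 in P-SSCs against 8.54 and 7.24 in BM-SSCs. Without array 2 of both, 1 gene of the list passed as higher, Tpx2, a spindle assembly factor.

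Secreted Wnt antagonists differed in direction on array 1. Without array 2 of both, 3 of 34 Wnt genes passed as lower and 0 as higher, where 1.98% and 0.478% of all genes did. They were Dkk1, Frzb and Wif1. Frzb read 3.51 and 3.55 in P-SSCs, against 6.11 and 3.48 in BM-SSCs, and was high on BM-SSC array 1 alone. Wif1 read 9.32 and 3.60 in P-SSCs, against 10.61 and 8.73 in BM-SSCs. Others read higher on P-SSC array 1 without passing. Sfrp2 read 10.09 and 4.17 in P-SSCs, against 8.80 and 5.67 in BM-SSCs, and Sfrp1 6.90 and 5.97 in P-SSCs, against 5.97 and 6.02 in BM-SSCs.

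Hox genes give limb and trunk cells their position and are silent in most of the skull vault, and calvaria entered the P-SSC pool. Without detection calls the values do not settle which Hox genes were present. Hoxa5 read 9.18 and 9.33 in P-SSCs, against 8.55 and 8.74 in BM-SSCs, by its brightest probe set. Of its 2 probe sets, 1 was higher and 1 lower in P-SSCs on both numbers. Hoxc8 read 7.43 and 6.17 in P-SSCs, against 7.34 and 5.24 in BM-SSCs. Over 30 Hox genes the median difference was -0.15 on array 1 and 0.29 on array 2, and 0 genes passed without array 2 in either direction.

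Immediate early genes, which dissociation of tissue can induce, were bright on array 1 of both populations. Fos read 13.58 and 9.47 in P-SSCs, against 13.90 and 12.87 in BM-SSCs, and the median of the 18 genes was 11.51 and 5.01 in P-SSCs, against 11.92 and 10.26 in BM-SSCs.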
